A study of Mus musculus with 12 samples.

Results

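Toll-like receptors are innate immune sensors of microbial and host molecules, and the genes described here are 7 of these receptors (Tlr1, Tlr2, Tlr3, Tlr4, Tlr6, Tlr7 and Tlr9), the co-receptor Cd14 and the adaptor Myd88. Members were all probe sets that the platform annotation assigns to these genes alone, which gave 13 probe sets for 9 genes, of 20380 such probe sets for 12393 genes on the array. RNA of whole brain lysate was measured in 12 arrays, 3 for each of 4 genotypes of adult, untreated mice housed under SPF (specific pathogen-free) conditions. The genotypes were wild type (WT), USP18ko, IFNARko (called IFNAR1ko in the design text) and the double knockout USP18ko:IFNARko. The labels give no allele, strain, sex or batch, and do not say whether each array is a separate animal, so the p-values speak to the spread among these arrays alone. Whole tissue was assayed, so fewer cells of a type and less RNA per cell cannot be told apart.

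Receptors that sit at the cell surface, such as Tlr2 and Tlr4, bind bacterial products. Those in endosomes, such as Tlr3, Tlr7 and Tlr9, bind nucleic acids. All of these receptors except Tlr3 signal through Myd88, whereas Tlr3 uses the adaptor Ticam1 (TRIF). In the brain, microglia, the resident macrophages, are a main site of their expression. Ifnar1 is a chain of the receptor for type I interferon, and Usp18, a protease that cleaves Isg15 off other proteins, restrains signalling from that receptor.

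Signals are log2 values per probe set, as the authors deposited them, and where a gene has several probe sets, the brightest on average is used. Levels of different probe sets cannot be compared, and no detection call was used here, so a low signal is not shown to lie above background. All 9 genes had a mean signal below the 40th percentile of all genes (6.72), the highest being Myd88 at 6.21. Ifnar1 read 7.44 to 8.21 in the 6 arrays with the gene intact and 6.24 to 6.68 in the 6 arrays labelled as knockouts. Usp18 read 4.04 to 4.36 in WT and 3.50 to 3.76 in the other 9 arrays, IFNARko included, so that its signal did not separate the Usp18 knockouts from IFNARko. Neuronal, astrocytic and oligodendrocytic markers averaged 8.83 to 9.55, 9.01 to 9.49 and 6.98 to 10.05, respectively. Signals of Xist, which is transcribed from the inactive X chromosome, were 10.17 to 11.34 in WT replicate 1 and all 3 USP18ko:IFNARko arrays and 4.98 to 5.69 in the others. Eif2s3y, a Y-linked gene, read 3.18 in WT replicate 1, 3.05, 7.16 and 3.22 in USP18ko:IFNARko and 7.26 to 8.94 in the others, so that USP18ko:IFNARko replicate 2 was high in both. Between USP18ko:IFNARko and USP18ko, and between USP18ko:IFNARko and IFNARko, Xist signal and genotype cannot be told apart. The interaction described below contains the latter difference. The actin control probes differed between the 3′ and 5′ ends by 1.48 in IFNARko replicate 1 and by 0.20 to 0.54 in the other 11 arrays.

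Tlr3 and Tlr2 were the 2 genes that changed most clearly, and Myd88 and Tlr6 the 2 that matched the interferon-stimulated response element (ISRE). The start regions of these 4 genes are shown. Each holds the 250 bases before a RefSeq transcript start (build GRCm38.p6, minus strand), 5′ to 3′, and capitals mark motif matches. The positions are chr8:45410381-45410630 for Tlr3, chr3:83841609-83841858 for Tlr2, chr9:119340019-119340268 for Myd88 and chr5:64959167-64959416 for Tlr6.
Tlr3: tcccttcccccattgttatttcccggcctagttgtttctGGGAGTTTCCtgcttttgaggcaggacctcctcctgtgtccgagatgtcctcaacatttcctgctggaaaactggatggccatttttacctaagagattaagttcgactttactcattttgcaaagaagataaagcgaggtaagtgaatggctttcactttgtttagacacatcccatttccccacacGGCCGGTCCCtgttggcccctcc
Tlr2: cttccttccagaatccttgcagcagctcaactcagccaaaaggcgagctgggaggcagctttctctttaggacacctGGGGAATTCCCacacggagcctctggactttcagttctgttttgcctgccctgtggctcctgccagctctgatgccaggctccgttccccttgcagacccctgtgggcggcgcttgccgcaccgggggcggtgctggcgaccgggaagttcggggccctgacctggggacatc
Myd88: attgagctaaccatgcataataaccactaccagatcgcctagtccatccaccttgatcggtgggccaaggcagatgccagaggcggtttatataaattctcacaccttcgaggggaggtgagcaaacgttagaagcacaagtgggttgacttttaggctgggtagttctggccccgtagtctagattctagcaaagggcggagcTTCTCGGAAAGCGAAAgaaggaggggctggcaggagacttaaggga
Tlr6: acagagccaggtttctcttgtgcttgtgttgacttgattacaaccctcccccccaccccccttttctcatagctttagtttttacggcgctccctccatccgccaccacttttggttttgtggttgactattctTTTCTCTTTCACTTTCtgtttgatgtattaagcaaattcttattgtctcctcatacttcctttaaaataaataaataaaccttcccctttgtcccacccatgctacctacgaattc

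The search covered 3 motifs on both strands: ISRE (GAAA, 2 bases of any kind, GAAA), an interferon-stimulated response element, GAS (TTCNNNGAA), a STAT site, and kB (GGG, 5 bases of any kind, CC), an NF-kB site. They were present before 2.98%, 7.02% and 45.8% of 32851 start sites. The table held 8 start sites of 6 of the 9 genes, without Tlr4, Tlr7 and Cd14. Tlr3 matched kB at positions -211 and -23 from the start site, and Tlr2 matched kB in overlapping registers at -173 and -172. Myd88 matched ISRE at -40, overlapping a GAS match at -46, and Tlr6 matched ISRE at -116 and -110, also overlapping. Of the start sites not shown, 1 of Tlr1 matched GAS at -228 and the second of Tlr6 matched kB at -99. A match is a description of letters only.

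Tlr3, the endosomal sensor of double-stranded RNA, had by its brighter probe set the largest rise of the 9 genes in the brain of USP18ko mice. Its signal was 5.12, 5.07 and 5.10 in the WT arrays and 6.88, 6.70 and 6.60 in the USP18ko arrays. IFNARko arrays read 5.13, 4.89 and 4.91, and USP18ko:IFNARko arrays read 4.75, 4.95 and 4.72. All 3 USP18ko arrays lay above all 9 others. USP18ko exceeded WT by 1.63 on the log2 scale (SE 0.11, 95% interval 1.39 to 1.87, limma with Benjamini-Hochberg adjusted p = 1.53e-06). The double knockout lay below USP18ko by 1.92 (a difference of -1.92, SE 0.11, limma adjusted p = 2.99e-07). The second probe set of Tlr3 read 3.85 to 4.05 in WT and 4.30 to 4.69 in USP18ko. Its difference of 0.56 (SE 0.12) missed the threshold when all probe sets were tested alone (limma adjusted p = 0.0603), while the difference of USP18ko:IFNARko from USP18ko, -0.83, passed it (limma adjusted p = 0.00281). Averaging both probe sets gave 1.10 for USP18ko minus WT, still called, but below the rises of Tlr2 (1.31) and Cd14 (1.19).

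Tlr7, an endosomal receptor for single-stranded RNA, separated USP18ko from the other genotypes by a smaller margin. The probe set used read 4.31, 4.55 and 4.30 in WT and 4.84, 4.86 and 5.10 in USP18ko. IFNARko arrays read 4.68, 4.37 and 4.37, and USP18ko:IFNARko arrays read 4.10, 4.40 and 4.16. USP18ko did not overlap with any other genotype. Its difference from WT was 0.55 (SE 0.13, 95% interval 0.26 to 0.83), with an unadjusted p of 0.00116 and a limma adjusted p of 0.091. This missed the threshold. The difference was called in 1 of 22 alternatives, when IFNARko replicate 1 was left out (0.55, limma adjusted p = 0.0293). That array is outside this comparison and enters only the shared estimate of the spread. The mean of the probe sets gave 0.22 for USP18ko minus WT, which was not called. The double knockout fell against USP18ko by 0.71 (SE 0.13, limma adjusted p = 0.011). That call was lost without USP18ko replicate 3 (-0.63), without USP18ko:IFNARko replicate 1 (-0.65) or replicate 3 (-0.68), and with the Y-linked gene Eif2s3y as a covariate (-0.57). Tlr7 lies on the X chromosome. The other probe sets of Tlr7 differed by 0.07 and 0.04 between USP18ko and WT and by -0.09 and -0.02 between USP18ko:IFNARko and USP18ko, none near the threshold, and the mean of the probe sets gave -0.27 for the latter comparison, which was not called (limma adjusted p = 0.532).

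Tlr9, the endosomal receptor for unmethylated CpG DNA, read 5.51, 5.34 and 5.29 in WT and 5.41, 5.11 and 5.61 in USP18ko. IFNARko arrays read 5.42, 5.23 and 5.19, and USP18ko:IFNARko arrays read 5.47, 5.23 and 5.32. The groups overlapped throughout, and USP18ko and WT differed by 0.00 (SE 0.13, 95% interval -0.29 to 0.28). Among the 9 genes, Tlr9 was the one for which USP18ko did not have the highest group mean.

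**Figure D1:**
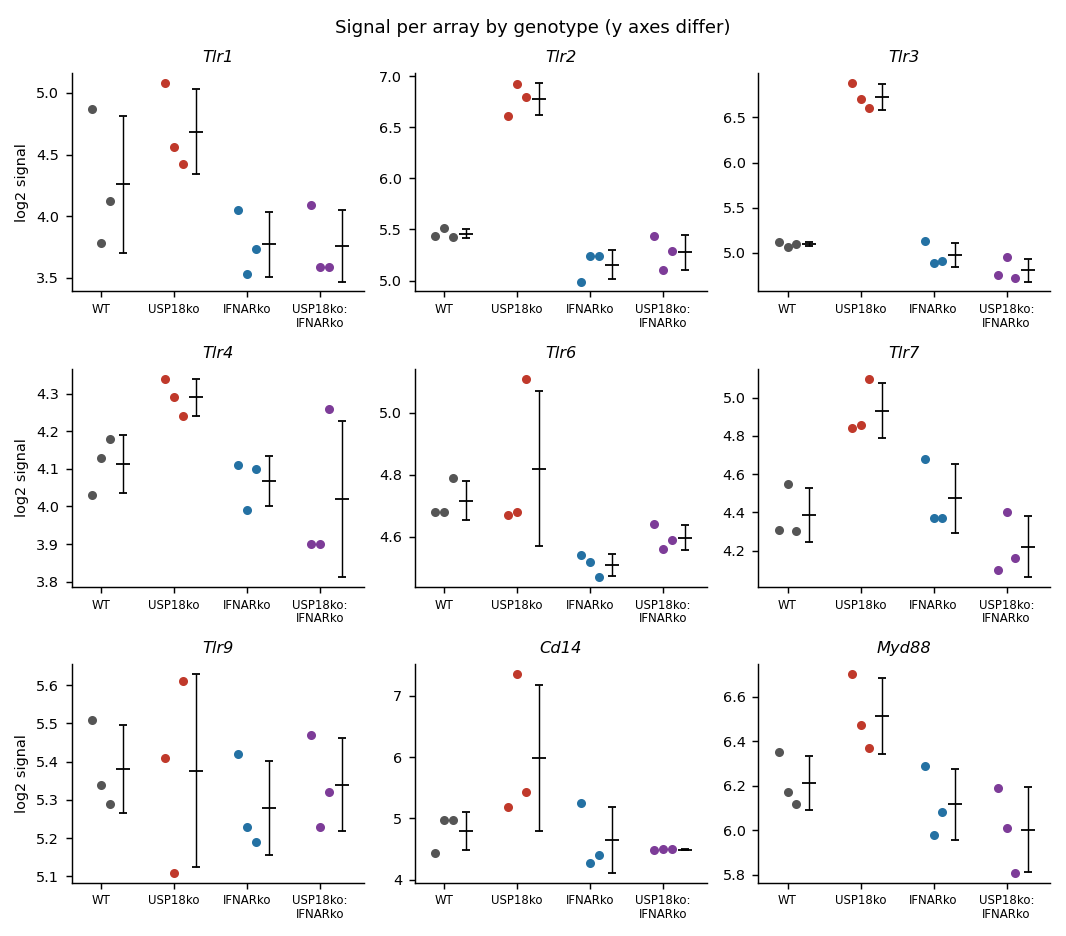
Signal (log2, y axes differ) of the 9 genes in each array, with the group mean and SD beside the points. The USP18ko arrays of Tlr2 (6.61 to 6.92) and Tlr3 (6.60 to 6.88) stand above all other arrays, while Tlr9 overlaps in all groups.

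Tlr2, which pairs with Tlr1 or Tlr6 to bind bacterial lipopeptides, also rose in USP18ko. Its signal was 5.44, 5.51 and 5.43 in WT and 6.61, 6.92 and 6.80 in USP18ko. IFNARko arrays read 4.99, 5.24 and 5.24, and USP18ko:IFNARko arrays read 5.44, 5.10 and 5.29. As for Tlr3, every USP18ko array was above every other array. The difference from WT was 1.31 (SE 0.12, 95% interval 1.05 to 1.58, limma adjusted p = 2.62e-05), and USP18ko:IFNARko fell by 1.5 against USP18ko (SE 0.12, limma adjusted p = 5.84e-06).

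The partners of Tlr2 did not pass the test. Tlr1 read 4.87, 3.78 and 4.12 in WT and 5.08, 4.56 and 4.42 in USP18ko. IFNARko arrays read 4.05, 3.53 and 3.73, and USP18ko:IFNARko arrays read 4.09, 3.59 and 3.59. WT replicate 1 was the highest WT array and overlapped with USP18ko, which exceeded WT by 0.43 (SE 0.26, 95% interval -0.14 to 0.99, limma adjusted p = 1.00). Leaving out WT replicate 1 made that difference 0.73, leaving out WT replicate 2 made it 0.19, and leaving out USP18ko replicate 1 made it 0.23. It is also the median difference of the 9 genes. Against USP18ko the double knockout differed in Tlr1 by -0.93 (SE 0.26, limma adjusted p = 0.181), with no overlap between the groups. Of 23 alternatives, 7 called that Tlr1 difference. Leaving out WT replicate 1 gave a limma adjusted p of 0.0464. That array is outside this comparison, so the difference stayed at -0.93 and only the shared estimate of the spread changed. Deviations of same-numbered USP18ko and USP18ko:IFNARko arrays correlated at 0.136 to 0.273, a pairing read from the data and not from the labels. With the replicate number as a block the limma adjusted p for Tlr1 was 0.00318. With the same block in a fit of these 6 arrays alone, chosen after seeing the data, it was 4.53e-04. Without the block, the fit of these 6 arrays gave a limma adjusted p of 0.0485. Tlr6 read 4.68, 4.68 and 4.79 in WT and 4.67, 4.68 and 5.11 in USP18ko. IFNARko arrays read 4.54, 4.52 and 4.47, and USP18ko:IFNARko arrays read 4.64, 4.56 and 4.59. USP18ko replicate 3 was the highest, and the USP18ko difference from WT for Tlr6 was 0.10 (SE 0.12, 95% interval -0.16 to 0.36), which became -0.05 without that array.

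Tlr4, the receptor for bacterial lipopolysaccharide, read 4.03, 4.13 and 4.18 in WT and 4.34, 4.29 and 4.24 in USP18ko. IFNARko arrays read 4.11, 3.99 and 4.10, and USP18ko:IFNARko arrays read 3.90, 3.90 and 4.26. USP18ko lay above WT without overlap, but the difference of 0.18 (SE 0.11, 95% interval -0.06 to 0.42) did not pass the test (limma adjusted p = 1.00). The second probe set of Tlr4 differed by -0.07.

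**Figure D2:**
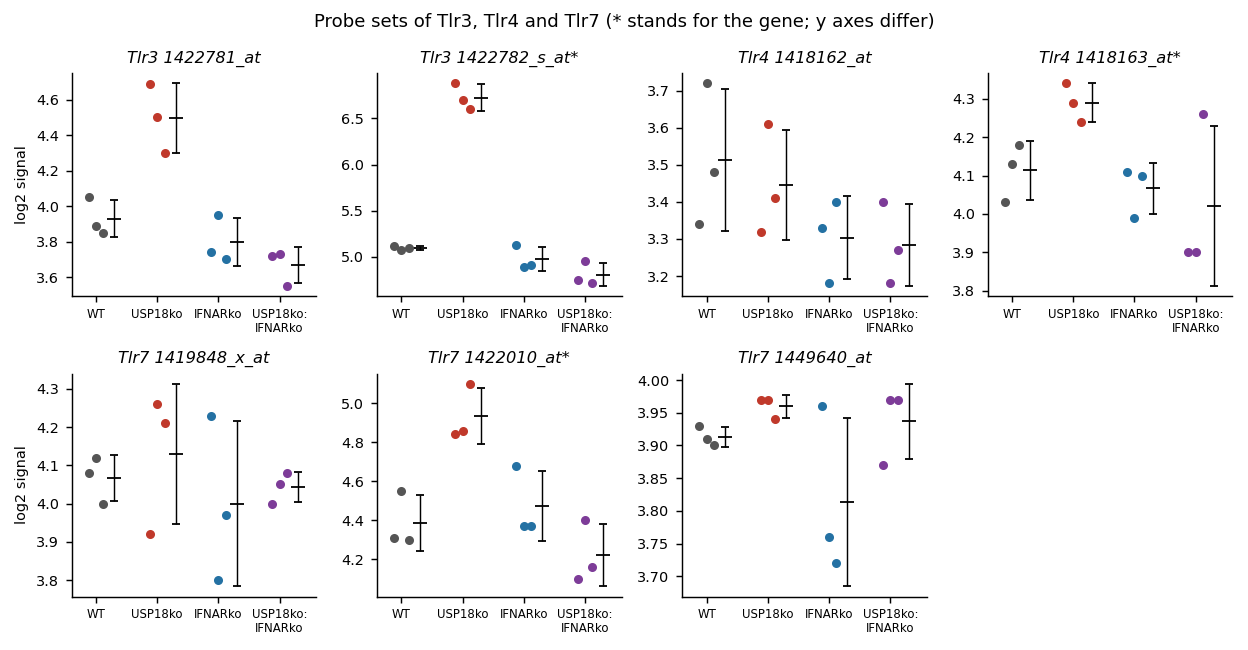
Signal (log2, y axes differ) in each array for each probe set of Tlr3, Tlr4 and Tlr7, with the group mean and SD. The asterisk marks the probe set used for the gene. Both Tlr3 probe sets have USP18ko highest, while 1 of the 3 Tlr7 probe sets separates USP18ko from the other groups.

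Cd14, a co-receptor that hands lipopolysaccharide to Tlr4, was high in 1 array. It read 4.44, 4.97 and 4.98 in WT and 5.18, 7.35 and 5.43 in USP18ko. IFNARko arrays read 5.26, 4.28 and 4.41, and USP18ko:IFNARko arrays read 4.48, 4.50 and 4.50. All USP18ko arrays were above the WT arrays, and replicate 2 was 1.92 above every other array. The mean difference was 1.19 (SE 0.44, 95% interval 0.23 to 2.14) and was not called (unadjusted p = 0.0189, limma adjusted p = 0.659). Without USP18ko replicate 2 it was 0.51. Other genes were high in the same array, chosen after their values were seen. Lcn2, an iron-binding protein of acute inflammation, read 4.05, 8.32 and 4.28 in USP18ko. Saa3, an acute-phase protein, read 5.27, 7.02 and 4.86, and Ptgs2, the inducible prostaglandin synthase, read 3.00, 5.48 and 3.04. Their part in the Cd14 result was not tested.

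**Figure D3:**
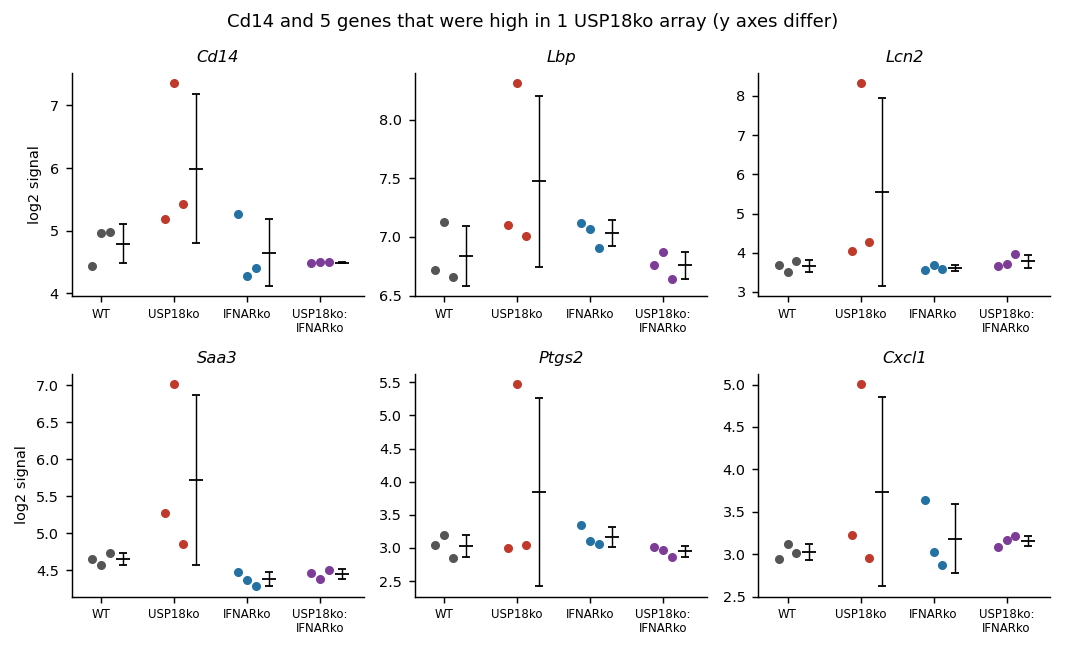
Signal (log2, y axes differ) of Cd14 and 5 other genes that were at least 1 above every other array in USP18ko replicate 2, with the group mean and SD. USP18ko replicate 2 reads 7.35 for Cd14 and 8.32 for Lcn2, and the remaining USP18ko arrays lie closer to the WT arrays.

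Myd88, the adaptor of most Toll-like receptors, read 6.35, 6.17 and 6.12 in WT and 6.70, 6.47 and 6.37 in USP18ko. IFNARko arrays read 6.29, 5.98 and 6.08, and USP18ko:IFNARko arrays read 6.19, 6.01 and 5.81. The USP18ko arrays stood above WT without overlap by 0.30 (SE 0.13, 95% interval 0.01 to 0.58, unadjusted p = 0.0426, limma adjusted p = 1.00). USP18ko:IFNARko differed from USP18ko in Myd88 by -0.51 (SE 0.13, limma adjusted p = 0.117). With the replicate number as a block, a pairing that the labels do not give, this difference was called (limma adjusted p = 0.0234). With the same block in a fit of these 6 arrays alone, chosen after seeing the data, the limma adjusted p was 0.00968. Without the block, the fit of these 6 arrays did not call Myd88. Of 23 alternatives, 4 called this difference.

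In USP18ko against WT, 2 of the 9 genes rose, Tlr3 and Tlr2, at an adjusted p under 0.05, while 1.15% of all genes were called higher. At an unadjusted p under 0.05 there were 5 of 9, against 4.6% of all genes, and 6 of 9 were higher in USP18ko than in WT without overlap, where 4.07% of all genes were. The median difference of the 9 was 0.43, against -0.02 over all genes.

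The comparison of the double knockout with USP18ko shares the USP18ko arrays with the previous one. Here 3 of 9 were called lower (Tlr2, Tlr3 and Tlr7), where 1.48% of all genes were called lower. The median was -0.71 against 0.00 over all genes, 7 of 9 had an unadjusted p under 0.05, where 4.95% of all genes did, and 7 of 9 were lower without overlap, where 8.09% of all genes were. Cd14 differed by -1.49 (SE 0.44, limma adjusted p = 0.234), Tlr4 by -0.27, Tlr6 by -0.22 and Tlr9 by -0.04, none called. Cd14 differed by -0.81 without USP18ko replicate 2, and Tlr6 by -0.08 and Tlr9 by 0.08 without USP18ko replicate 3. With the replicate number as a block the count was 5, with Tlr1 and Myd88 added. The count was 6 with array weights, which also called Tlr1, Cd14 and Myd88, and 5 when WT replicate 1 and IFNARko replicate 1 were left out together, which also called Tlr1 and Myd88.

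**Figure D4:**
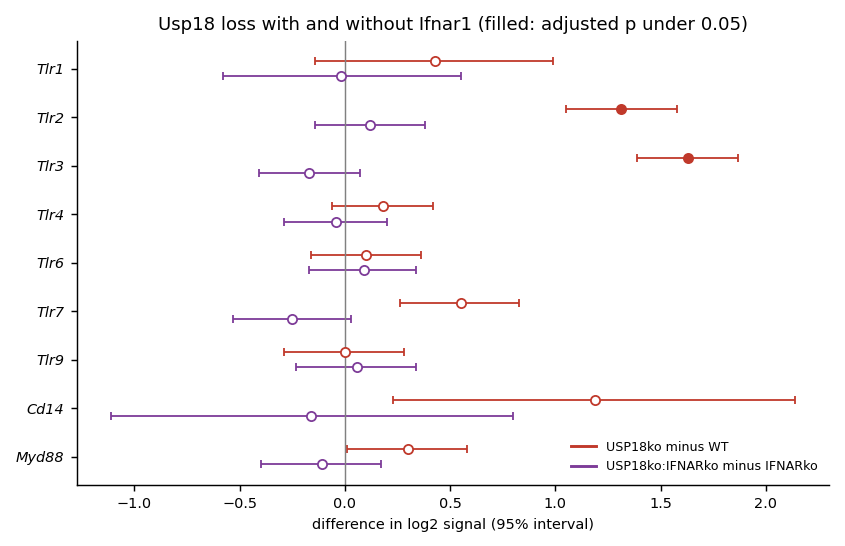
Difference in log2 signal (points, with 95% intervals) of USP18ko minus WT and of USP18ko:IFNARko minus IFNARko for the 9 genes, with filled points for an adjusted p under 0.05. Tlr2 (1.31) and Tlr3 (1.63) are filled for USP18ko minus WT alone, and the USP18ko:IFNARko minus IFNARko intervals of all 9 genes include 0.

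Where Ifnar1 was absent, none of the 9 genes passed the test for Usp18 loss. USP18ko:IFNARko against IFNARko gave 0 of 9 called by limma and 0 at an unadjusted p under 0.05, and the differences ran from -0.25 to 0.12. The share called over all genes was 0%, and 8.25% had an unadjusted p under 0.05. The interval for Tlr2 was -0.14 to 0.38 around 0.12, and for Tlr3 -0.41 to 0.07 around -0.17. Whether the Usp18 effect differed with Ifnar1 present or absent was tested by the interaction, the USP18ko:IFNARko minus IFNARko difference less the USP18ko minus WT difference. It was called negative for Tlr3 (-1.80, SE 0.16, limma adjusted p = 4.30e-05) and Tlr2 (-1.20, SE 0.17, limma adjusted p = 0.00253), 2 of 9, where 0.823% of all genes were called lower. Tlr7 gave -0.79 (SE 0.19, limma adjusted p = 0.0932) and Myd88 gave -0.41 (unadjusted p = 0.0476, limma adjusted p = 0.941), and 4 of 9 had an unadjusted p under 0.05, where 4.77% of all genes did.

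Ifnar1 loss alone called 0 of 9 genes by limma, with 1 of 9 at an unadjusted p under 0.05, and 0.00807% of all genes were called and 9.79% had an unadjusted p under 0.05. That gene was Tlr2, which was lower in IFNARko by 0.30 (-0.30, SE 0.12, unadjusted p = 0.0261, limma adjusted p = 0.503) without overlap. Between the double knockout and WT, 0 of 9 were called by limma and 1 of 9 had an unadjusted p under 0.05, where 0.0161% of all genes were called and 4.09% had an unadjusted p under 0.05. It was Tlr3 (-0.29, SE 0.11, unadjusted p = 0.0214, limma adjusted p = 0.995), again without overlap. Tlr6 was lower without overlap in both comparisons but had no unadjusted p under 0.05. How many of all genes were lower without overlap in these comparisons is not given here, so the lack of overlap carries no weight. Both comparisons share the WT arrays with that of USP18ko.

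Other genes of the pathway were read from 6 lists. In USP18ko against WT, 1.15% of all genes were called higher. Of 5 further Toll-like receptors, 2 were measured, and Tlr5 (-0.15) and Tlr8 (0.03) were not called in USP18ko against WT. Among co-receptors, chaperones and transport proteins, 9 of 11 were measured and 1 was called higher, Unc93b1, which carries endosomal receptors from the endoplasmic reticulum. Unc93b1 read 6.38, 6.47 and 6.43 in WT and 6.77, 7.02 and 6.98 in USP18ko, a difference of 0.50 (SE 0.10, limma adjusted p = 0.0242). Its call was lost without WT replicate 1 (0.48) or replicate 3 (0.50), USP18ko replicate 2 (0.45) or replicate 3 (0.47), or USP18ko:IFNARko replicate 1 (0.50). It was also lost with array weights (limma adjusted p = 0.264), the replicate block (0.0564), Eif2s3y as a covariate (0.051) and a fit of the compared groups alone (0.112). The median of this list was 0.00 against -0.02 over all genes. Ly86, the secreted partner of Cd180, had a difference of 1.5 that was not called (limma adjusted p = 0.266), and Lbp, which binds lipopolysaccharide, 0.64 (limma adjusted p = 0.91).

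Of 16 adaptors and receptor-proximal kinases, 10 were measured and 0 were called in USP18ko against WT by limma, with 1 at an unadjusted p under 0.05 and a median of 0.07. Among IKK, TBK1 and transcription factors, 14 of 16 were measured and 2 were called higher. Irf7, a master regulator of type I interferon genes, rose by 3.40 (SE 0.12, limma adjusted p = 4.71e-09), and Irf8, a factor of myeloid cells, by 0.96 (SE 0.13, limma adjusted p = 0.00116). Of restraints of the pathway, 9 of 14 were measured and 0 were called by limma, with 2 at an unadjusted p under 0.05 and a median of 0.05.

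All 23 target genes were measured and 4 were called higher, where 1.15% of all genes were, with a median of 0.35. Cxcl10, a chemokine that interferon also induces, read 3.94, 4.04 and 3.78 in WT and 9.42, 8.77 and 8.57 in USP18ko, a difference of 5.0 (SE 0.19, limma adjusted p = 8.13e-09). Ccl5 rose by 2.64 (limma adjusted p = 1.03e-06), Ccl2 by 1.37 (limma adjusted p = 5.74e-05) and the adhesion molecule Icam1 by 1.34 (limma adjusted p = 0.00168). The part of Toll-like receptor signalling in these rises was not tested. The cytokines Tnf (-0.01) and Il1b (0.23) were not called (limma adjusted p = 1.00 for each). Against USP18ko, the double knockout fell in Unc93b1 (-0.67), Irf7 (-3.76), Irf8 (-1.20), Cxcl10 (-5.30), Ccl5 (-2.89), Ccl2 (-1.42), Icam1 (-1.57) and the chemokine Ccl4 (-0.57, limma adjusted p = 0.0471), all called. No gene of the 6 lists was called in the comparisons of IFNARko or USP18ko:IFNARko with WT or of USP18ko:IFNARko with IFNARko.

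**Figure D5:**
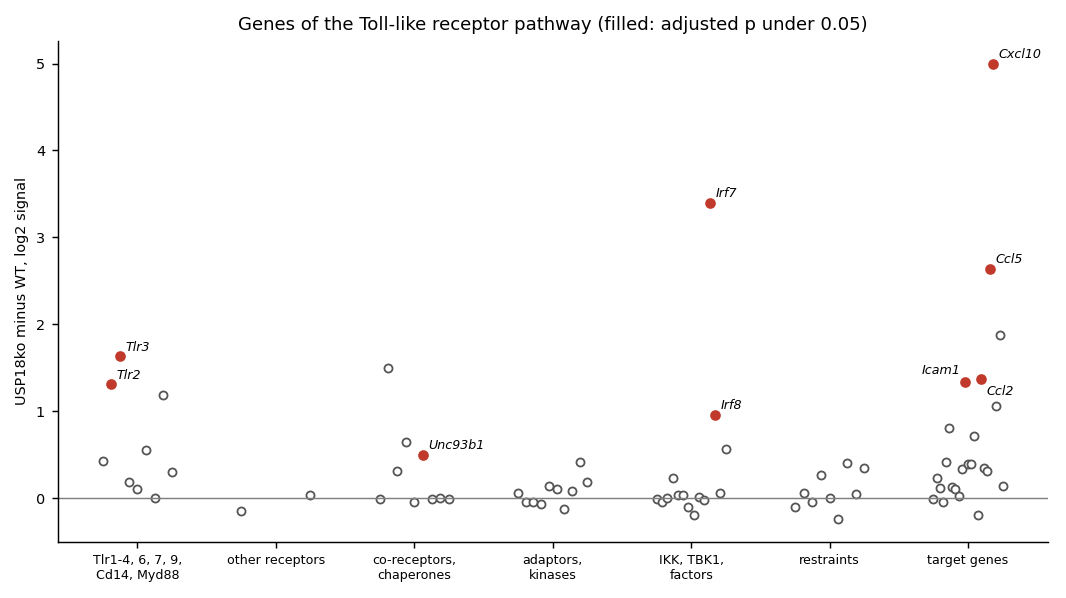
USP18ko minus WT difference in log2 signal of each measured gene of the pathway, by list, with filled points for an adjusted p under 0.05. The largest differences are those of Cxcl10 (5.0) and Irf7 (3.40), and most other genes lie near 0.

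Some markers of microglia and other myeloid cells differed between USP18ko and WT, where 1.15% of all genes were called higher. Of 15 measured microglial markers, 3 were called higher in USP18ko, namely Aif1 (1.93, limma adjusted p = 0.00205), C1qa (1.79, limma adjusted p = 0.0232) and Itgam (0.80, limma adjusted p = 0.00909), with a median of 0.60. Of the 15 differences, 13 were positive and 9 had an unadjusted limma p under 0.05, where 4.6% of all genes did. Some markers that were not called were also higher, such as C1qb (1.55, limma adjusted p = 0.0702), Tyrobp (1.26) and Csf1r (0.89). Others that were not called lay near or below 0, such as P2ry12 (-0.35), Gpr34 (-0.28), Fcrls (0.00), Selplg (0.07) and Olfml3 (0.11). C1qa lost its call without WT replicate 3 (1.86) or USP18ko replicate 2 (1.57) or replicate 3 (1.85), and Itgam without WT replicate 3 (0.77). C1qa was also not called among genes above the 40th percentile (limma adjusted p = 0.076), nor C1qa (0.178) and Itgam (0.079) in a fit of the compared groups alone, nor Itgam with array weights (0.0868). The mean microglial signal per array was 6.41 to 7.54 in WT and 7.41 to 8.03 in USP18ko. IFNARko arrays gave 6.81 to 6.95 and USP18ko:IFNARko arrays 6.82 to 6.86. Over WT replicates 1, 2 and 3, the microglial mean was 6.41, 7.54 and 7.07. Tlr3 read 5.12, 5.07 and 5.10 there, Tlr2 5.44, 5.51 and 5.43, and Tlr7 4.31, 4.55 and 4.30. These WT arrays also differed in Xist and in the oligodendrocytic mean (6.98 to 10.05). Over USP18ko replicates 1, 2 and 3, the microglial mean was 7.41, 8.03 and 7.73. Tlr3 read 6.88, 6.70 and 6.60 in them, Tlr2 6.61, 6.92 and 6.80, and Tlr7 4.84, 4.86 and 5.10. Perivascular macrophage markers had 1 of 8 called higher (Ms4a7, 1.74), and monocyte and neutrophil markers 1 of 10 (Plac8, 3.35), with group ranges of the mean of 4.37 to 4.50 in WT and 5.16 to 5.21 in USP18ko for the latter. The median difference of that list was 0.15, and beside Plac8 the largest were S100a8 (1.90) and S100a9 (1.63), neither called, while Ccr2 (0.19) and Camp (-0.16) were among the others. Lymphocyte, endothelial, astrocytic, oligodendrocytic, neuronal and choroid plexus markers had 0 called by limma, with 1 at an unadjusted p under 0.05 among all of them. Against USP18ko, the double knockout had 5 of 15 microglial, 1 of 8 perivascular and 2 of 10 monocyte and neutrophil markers called lower. Over all genes, 1.48% were called lower. Aif1 was among these markers (-2.31, limma adjusted p = 3.60e-04). The call was lost in 13 of 23 alternatives for Csf3r (-0.40), 7 of 23 for Itgam (-0.72) and 4 of 24 for C1qa (-1.91). The part of cell composition in the Tlr2, Tlr3 and Tlr7 results was not tested.

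The genes most like each called member over the 12 arrays were chosen by the root mean square difference of centred signals. For Tlr3 these were Zbp1 (0.17), a sensor of Z-form nucleic acids, Ms4a7 (0.18) and Ms4a4c (0.18). For Tlr2 they were Rac2 (0.17), a GTPase of blood cells, Ccl2 (0.17) and Itgb2 (0.18), a leukocyte integrin chain. For Tlr7 they were Gpr65 (0.11), Vav1 (0.12) and Vwa5a (0.13). Zbp1, the gene most like Tlr3, had a group mean of 6.78 in USP18ko and of 5.12 in WT, with 4.86 in IFNARko and 4.95 in the double knockout.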

How the data were processed

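Whole-brain RNA of 12 mouse samples, 3 for each of 4 genotypes, was measured on 1-colour 3′ expression arrays, with total RNA isolated by spin column and labelled in a one-cycle kit, per the labels' protocols. The authors deposited log2 signals per probe set, from 2.36 to 13.81, and the submitters' processing notes name the package affy. Not given in the sources used here were affy's version, background correction and normalization. Base 2 was read from the range of values. Of 22690 probe sets, 20380 had 1 gene in GEO's possibly old platform annotation, and 691 with several genes and 1555 unnamed were left out. Each of 12393 genes was given by its probe set with the highest mean. All 12 arrays were fitted together with limma 3.58.1 in R 4.3.3 (genotype only, two-sided, Benjamini-Hochberg over all genes, 8 residual and 4.67 prior degrees of freedom), for 6 comparisons including the interaction, with calls made at an adjusted p under 0.05. The script was tested on simulated data. The number of arrays limits the precision. Members, the 6 pathway lists and the 9 marker lists were chosen with earlier results of these data known. Named genes are the 9 members, up to 4 called per pathway list and up to 3 called per marker list, smallest p first, and the 3 genes most like each called member; others were chosen after their values were seen. Same-numbered arrays of USP18ko and USP18ko:IFNARko deviated together from their group means (correlations 0.158, 0.273 and 0.136), a pairing read from the data and not from the labels. Alternatives were other probe set summaries, a filter on low signals, normalizations, the replicate block, variance models, covariates and left-out arrays. Promoter sequences are from RefSeq. Sex, batch and scan date are not in the labels.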

Additional observations from a re-analysis of the deposited data

Results flagged for a closer look

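The effect of Usp18 loss differed with and without Ifnar1 for 11 genes named here, by a test of the interaction (USP18ko:IFNARko minus IFNARko, less USP18ko minus WT, limma adjusted p under 0.05). In each case USP18ko minus WT was positive and called, and USP18ko:IFNARko minus IFNARko was not called. For the receptors the interaction was -1.80 for Tlr3 and -1.20 for Tlr2. Among pathway genes it was -3.26 for Irf7, -1.08 for Irf8, -5.12 for Cxcl10, -2.67 for Ccl5, -1.31 for Ccl2 and -1.82 for Icam1. Among cell type markers it was -2.17 for Aif1, -1.97 for Ms4a7 and -3.71 for Plac8. With Eif2s3y as a covariate the interactions of Irf8 (-1.05), Ccl2 (-1.17), Icam1 (-1.68) and Aif1 (-1.31) were no longer called. That of Aif1 was also lost when USP18ko replicate 2 (-2.14) or replicate 3 (-2.04), any USP18ko:IFNARko array (-2.19 to -2.13) or IFNARko replicate 1 (-1.99) was left out.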

How the results depend on the processing

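Tlr2 and Tlr3 were called in USP18ko against WT, in USP18ko:IFNARko against USP18ko and in the interaction under every alternative that tested them, and 0 members were called in the other 3 comparisons under any of these. For Tlr3 these alternatives used the brightest probe set or the mean of both. The second Tlr3 probe set alone was not called in USP18ko against WT (0.56, limma adjusted p = 0.0603). Nor was it called in the interaction (-0.70, limma adjusted p = 0.177). A filter that dropped genes below the 40th percentile of signal left 0 of the 9 members, so that alternative gave no value for them. For USP18ko against WT, Tlr2 ranged from 1.24 to 1.40 and Tlr3 from 1.10 to 1.70, and leaving out 1 array gave 2 to 3 called members. In USP18ko:IFNARko against USP18ko, the 3 called members became 6 with array weights, 5 with the replicate block, 5 with the replicate block in a fit of these groups alone and 5 with WT replicate 1 and IFNARko replicate 1 left out together, the last 2 chosen after seeing the data, and leaving out 1 array gave 2 to 4. The replicate block gave 2 called members in USP18ko against WT and 2 in the interaction, the same genes, and 0 in the rest. Same-numbered arrays correlated at 0.136 to 0.273 between USP18ko and USP18ko:IFNARko, and at -0.148 to 0.221 between other genotypes, so that the ranges overlap. In the labels, same-numbered arrays of any genotypes share only a number. Tlr9 in USP18ko against WT turned positive with array weights (0.03), Eif2s3y as a covariate (0.05) and both of those arrays left out (0.06), and leaving out 1 array gave -0.12 to 0.13. Tlr9 in USP18ko:IFNARko against USP18ko became 0.05 with quantile normalization and -0.17 to 0.08 without 1 array, and Tlr6 in USP18ko against WT -0.05 to 0.18 without 1 array. The cause was not tested. Of the member differences that were rerun (all 9 in both comparisons with USP18ko, elsewhere those at an unadjusted p under 0.05), 506 values kept direction and side of the threshold, 13 gained and 5 lost a call, and 9 turned sign. The unknown background level of each probe set limits what low signals show.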

Other observations

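In USP18ko replicate 2, 13 genes were at least 1 log2 unit above every other array, against 0 to 28 in the other arrays (28 in IFNARko replicate 1 and 11 in WT replicate 2). The gap to the next highest array was 4.05 for Lcn2, 2.30 for Lrg1, a leucine-rich acute-phase glycoprotein, 2.13 for Ptgs2, 1.92 for Cd14, 1.75 for Saa3, 1.37 for the chemokine Cxcl1 and 1.18 for Lbp. It was 1.79 for Slfn8, 1.73 for Ifi209, 1.14 for Trim30a, 1.11 for Trim12a and 1.06 for Trim34a, which belong to families that include interferon-responsive genes, and 1.04 for Ier3. These genes were chosen after their values were seen.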
